A study of Homo sapiens with 6 samples.

Results

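MicroRNA host genes are genes whose primary transcript carries 1 or more microRNA hairpins. Of 10 named host genes, MIR22HG, MIR100HG, MIR17HG, MIR210HG, MIR222HG, MIR193BHG, MIR503HG, MIR4435-2HG and MIR155HG were found by symbol among the 28979 gene IDs of the count files, which makes 9 members. MIR31HG was not found among these gene IDs, so it was not analysed here. Each of the 28979 listed IDs had at least 1 count in at least 1 library.

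The cells were MDA-MB-231, a human breast cancer line of mesenchymal character that lacks the oestrogen receptor, sequenced as 3 libraries labelled Ang and 3 labelled Con. The series design describes breast cancer cells given exosomes, small secreted vesicles, of hypertrophic or of normal cardiomyocytes, in a search for targets of microRNAs. The labels do not spell out Ang and Con or how they relate to that exposure, and name no dose, time, or separate culture. Both groups share the 1 cell line, and p-values here rest on how far these libraries vary, which could be technical variation alone.

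A host transcript is cut in the nucleus by DROSHA and its partner DGCR8, which release the hairpin, and DICER1 then trims the hairpin to the mature microRNA that guides an Argonaute protein to its targets. The host RNA left over may be degraded or may be spliced, polyadenylated and kept. Reads of poly-A selected RNA are meant to count the host transcript, and they measure neither the mature microRNA nor its delivery in vesicles. In these libraries, counts under the gene ID of a host may come partly or mainly from RNA of the other strand. The part of the other strand was not tested. A mature microRNA recognises messages mainly through its seed, bases 2 to 8 from the 5′ end.

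The spans of the 9 members, with MIR31HG added, held 20 annotated hairpins on the host's own strand, 19 of them within the 9 members. Of the 20 hairpins, 8 lay under a host exon, which were those of MIR22HG, MIR155HG and the 6 of MIR17HG, and the others lay in introns. The sequences below show what the host genes carry. They are the usual arm for the hosts that could be tested, followed by 4 arms of MIR17HG that share seeds in pairs, written from RefSeq on GRCh38.p14 with the seed in capitals.
hsa-miR-221-3p: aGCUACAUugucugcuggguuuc
hsa-miR-222-3p: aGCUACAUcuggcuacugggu
hsa-miR-4435: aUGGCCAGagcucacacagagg
hsa-miR-100-5p: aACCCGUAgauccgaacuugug
hsa-let-7a-5p: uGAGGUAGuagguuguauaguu
hsa-miR-125b-5p: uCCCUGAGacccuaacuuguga
hsa-miR-210-3p: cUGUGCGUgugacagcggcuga
hsa-miR-503-5p: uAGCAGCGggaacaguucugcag
hsa-miR-22-3p: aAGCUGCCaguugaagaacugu
hsa-miR-17-5p: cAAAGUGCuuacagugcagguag
hsa-miR-20a-5p: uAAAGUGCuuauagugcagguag
hsa-miR-19a-3p: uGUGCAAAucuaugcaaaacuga
hsa-miR-19b-3p: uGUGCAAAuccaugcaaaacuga
Shared seeds occurred within a host and not between the hosts shown. Both microRNAs of MIR222HG have the seed GCUACAU, miR-17-5p and miR-20a-5p share AAAGUGC, and miR-19a-3p and miR-19b-3p share GUGCAAA. The 3 microRNAs of MIR100HG printed here have 3 different seeds. Over 18 usual arms of the 9 members there were 15 seeds.

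Total counts per library ran from 3369212 to 5437190, and a count of 0 allowed up to 3 counts, or 0.552 to 0.890 CPM (counts relative to the library total) in these libraries, for counting error alone. The marker genes of the line, VIM, CD44, FN1, AXL, CAV1 and MSN, were all present, with summed levels of 2668 to 2823 CPM in Ang and 2131 to 2833 CPM in Con. The 8 markers of luminal epithelium summed to 1151 to 1228 CPM in Ang and 1046 to 1243 CPM in Con, nearly all from the keratin genes KRT8 (987 CPM on average in Ang and 955 CPM in Con) and KRT18 (185 CPM in Ang and 160 CPM in Con). EPCAM averaged 9.76 CPM in Ang and 9.83 CPM in Con and GATA3 3.14 CPM in Ang and 4.69 CPM in Con, while FOXA1 averaged 1.16 CPM in Ang and 0.524 CPM in Con, and ESR1 and PGR, the oestrogen and progesterone receptor genes, and CDH1, the E-cadherin gene, were below 1 CPM on average in both groups. Of 12 cardiomyocyte markers 8 were listed, with sums of 214 to 257 CPM in Ang and 204 to 310 CPM in Con. These came mostly from TTN, which has 15.5% of its exon bases under exons of the other strand. That share was 24.4% for VIM, 16.3% for KRT18 and 7.63% for KRT8. NPPA, the atrial natriuretic peptide gene, had 6.46, 6.05 and 12.4 CPM in Ang replicates 1 to 3 against 6.55, 8.28 and 17.3 CPM in Con replicates 1 to 3 (log2 fold change -0.34 ± 0.40), and 25.5% of its exon bases lie under exons of the other strand. NPPB averaged 0.462 CPM in Ang and 1.01 CPM in Con, PLN 0.805 CPM in Ang and 0.296 CPM in Con, TNNI3 0.0963 CPM in Ang and 0.604 CPM in Con, and MYH6, MYL2 and RYR2 at most 0.0978 CPM in either group. Listed markers summed to 4.40 to 6.81 CPM in Ang and 6.76 to 10.6 CPM in Con for fibroblasts, to 2.31 to 5.29 CPM in Ang and 2.11 to 7.44 CPM in Con for leukocytes, and to 11.15 to 14.4 CPM in Ang and 15.4 to 19.1 CPM in Con for endothelium, and their part in the results was not tested. Noncoding genes lying under a coding gene on the other strand had a median of 36.3 times the counts per base of that coding gene. The ratio was above 1 in 90.9% of such pairs. The library medians of this ratio were 38.2 to 39.3 in Ang, and 42.6, 28.5 and 45.4 in Con replicates 1 to 3. The strand setting of the counter is not given in the sources used here. With such a ratio, a member's counts may come partly or mainly from RNA of the other strand. Levels of a member, and of the coding and other genes named here, are therefore counts under the gene ID. The part of the other strand in them was not tested. For 8 of the 9 members GENCODE release 29 places no exon of another gene on the other strand under their own exons. MIR4435-2HG has 5.55% of its exon bases under an exon of BCL2L11. Whole spans on the other strand overlap more. The span of MIR4435-2HG meets 81447 bases of ACOXL (28, 25 and 58 counts in Ang replicates 1 to 3, against 47, 65 and 39 in Con). It also meets 10532 bases of AC108463.2 (72, 88 and 36 against 129, 101 and 111). MIR22HG meets 652 bases of WDR81 and MIR100HG 12830 bases of AP000755.2. The part of these genes in the results was not tested.

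Compared by CPM per kilobase of annotated exon, the members spanned a wide range of levels. MIR222HG stood first at 8.67 ± 1.87 in Ang and 8.12 ± 0.729 in Con (SD, n = 3 each), and MIR4435-2HG followed at 6.66 ± 0.305 in Ang and 6.09 ± 1.05 in Con. MIR222HG was above MIR4435-2HG in 6 of 6 libraries, although their ranges over all libraries, 6.64 to 10.3 and 5.22 to 7.25, overlapped. MIR100HG came next with 4.04 ± 0.704 in Ang and 3.47 ± 0.448 in Con, and its range did not overlap that of MIR4435-2HG. MIR210HG, MIR503HG and MIR22HG followed with overall means of 3.08, 2.69 and 1.51, and from MIR100HG down to MIR22HG each gene was above the next in 4 of 6 libraries, so these neighbours did not differ beyond their spread. MIR155HG at 0.496, MIR17HG at 0.470 and MIR193BHG at 0.0539 formed the low end, where MIR155HG was above MIR17HG in 2 of 6 libraries. Exon lengths were those of GENCODE release 29, which may differ from the annotation used for counting. They join the exons of all transcripts of a gene, 2785 bases for MIR222HG, 13094 for MIR4435-2HG and 19385 for MIR100HG. The order depends on these lengths. In CPM without length, MIR4435-2HG averaged 83.5 and MIR100HG 72.8 over all libraries, above MIR222HG at 23.4.

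**Figure D1:**
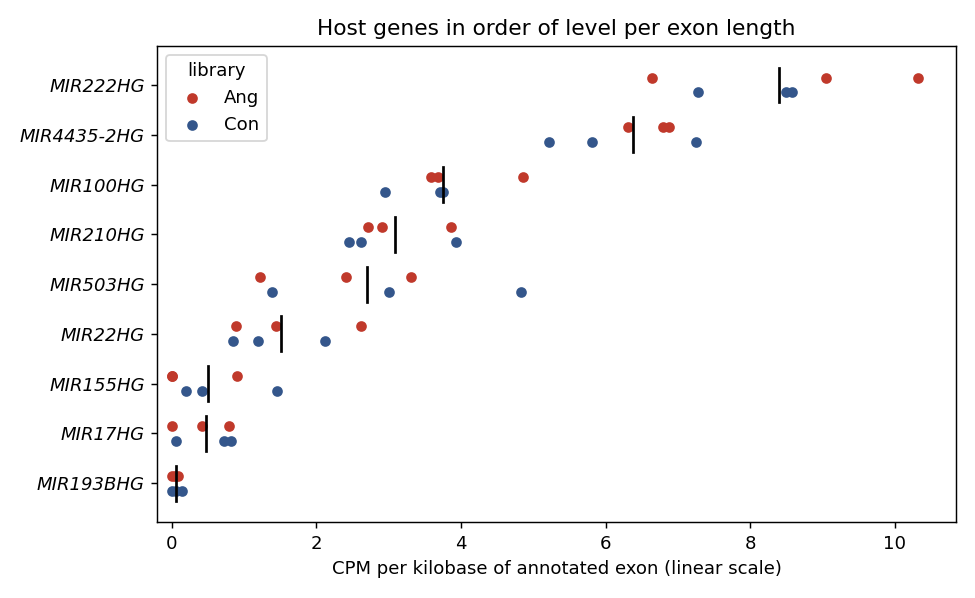
Level of each host gene in CPM per kilobase of annotated exon on a linear axis, with 1 point per Ang or Con library and a black bar at the mean of all 6. MIR222HG and MIR4435-2HG lie between 5.22 and 10.3, and MIR193BHG stays below 0.140.

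No member passed the test of Ang against Con. Among 14547 genes, edgeR's quasi-likelihood test called 0 (0%) at a Benjamini-Hochberg adjusted p under 0.05, DESeq2 and limma-voom also called 0, and 494 genes (3.40%) had an unadjusted p under 0.05 by edgeR, with 411 by DESeq2 and 447 by limma-voom. Without Con replicate 2 edgeR called 40 genes and without Con replicate 1 it called 1, and no member was among them. Of the 9 members 6 passed the filter on low counts, and of these 0 had an unadjusted p under 0.05. For 0 of the 9 members did all Ang libraries lie on one side of all Con libraries, which was so for 8.16% of all genes tested. Of the 6 tested members 5 had a log2 fold change above 0 and 1 below, with a median of 0.12, beside a median of -0.01 over all genes tested, of which 50.8% were lower in Ang.

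MIR222HG, on the minus strand of chromosome X (45745211 to 45770274), carries miR-221 and miR-222, which repress the cell cycle inhibitor CDKN1B (p27) and are known for high levels in mesenchymal breast cancer cells. It had 98, 100 and 64 counts in Ang replicates 1 to 3, which are 28.8, 25.2 and 18.5 CPM, against 96, 140 and 76 counts in Con replicates 1 to 3, which are 20.3, 23.7 and 23.9 CPM. The highest and the lowest level were both in Ang libraries, and all 3 Con libraries lay between them. The log2 fold change was 0.10 ± 0.27 (SE, as for all fold changes here), with a 95% interval of -0.44 to 0.63 and an edgeR adjusted p of 0.999. The hairpin genes of MIR221 and MIR222 have rows of their own, with 1, 2 and 1 counts for MIR221 in Ang against 0, 0 and 3 in Con, and 0, 1 and 1 counts for MIR222 in Ang against 4, 2 and 3 in Con. These counts are at or near the limit that a count of 0 allows and show no level of the mature microRNAs.

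MIR4435-2HG, on the minus strand of chromosome 2 (111036776 to 111523376), had the most counts of the members. In mouse the corresponding RNA, called Morrbid, is known to repress the neighbouring gene of the death-promoting protein BIM in myeloid cells. It had 88.9, 90.01 and 82.6 CPM in Ang replicates 1 to 3, against 76.0, 68.3 and 94.99 CPM in Con replicates 1 to 3. The Ang libraries lay close together and within the span of the Con libraries, of which replicate 3 was the highest of all 6. The log2 fold change was 0.13 ± 0.18, with an interval of -0.23 to 0.50 and an edgeR adjusted p of 0.999. The interval corresponds to 0.853-fold to 1.41-fold.

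Reads of MIR4435-2HG can be shared with near-identical copies. The shorter match, to AC133644.3, was 99.8% identical over 437 bases, 23.6% of a MIR4435-2HG transcript. AC133644.3 had 0, 0 and 2 counts in Ang replicates 1 to 3, against 4, 0 and 4 in Con replicates 1 to 3. A stretch of 2254 bases of a MIR4435-2HG transcript, 63.2% of its length, was 99.2% identical to a transcript of CYTOR, a long noncoding RNA gene on the plus strand of chromosome 2 (87454781 to 87636740). CYTOR had 36, 55 and 40 counts in Ang replicates 1 to 3, against 39, 70 and 29 in Con replicates 1 to 3. Its log2 fold change was 0.30 ± 0.37, and the Ang and Con libraries overlapped. With the counts of MIR4435-2HG and CYTOR summed, an alternative chosen after seeing the data, the value was 0.15 ± 0.18. It kept the direction and did not pass the threshold. Most of the summed counts were those of MIR4435-2HG, 2012 over all libraries, and both genes had values above 0. The sum could therefore hardly show another direction, and it does not decide how reads were shared. BCL2L11, which encodes BIM and lies within the span of MIR4435-2HG on the plus strand, had 3.81, 8.07 and 12.4 CPM in Ang against 8.03, 9.80 and 10.1 CPM in Con. Its levels spread most within Ang, and the log2 fold change was -0.19 ± 0.41, not past the edgeR threshold.

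MIR100HG, on the minus strand of chromosome 11 (122028327 to 122556721), carries miR-100, let-7a-2 and miR-125b-1, of which let-7 is a classical repressor of RAS and HMGA2. It had 71.3, 94.0 and 69.6 CPM in Ang replicates 1 to 3, against 57.2, 71.8 and 72.7 CPM in Con replicates 1 to 3. Ang replicate 2 was the highest and Con replicate 1 the lowest, and the other 4 libraries lay within 69.6 to 72.7 CPM. The log2 fold change of 0.22 ± 0.19 had the smallest unadjusted p of the tested members, 0.242 by edgeR (adjusted p 0.999), with an interval of -0.15 to 0.60. Without Ang replicate 2 it was 0.07. The hairpin gene of let-7a-2 had 1 count in Ang replicate 2 and 0 in each other library.

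MIR210HG, MIR22HG and MIR503HG were lower and their intervals wider. MIR210HG, on the minus strand of chromosome 11 (565660 to 568457), hosts miR-210, the microRNA best known as a target of the hypoxia factor HIF-1. It had 6.75, 6.30 and 8.95 CPM in Ang replicates 1 to 3, against 5.70, 6.09 and 9.12 CPM in Con replicates 1 to 3. Replicate 3 was the highest library of either group and the groups overlapped, with a log2 fold change of 0.09 ± 0.46. The value was -0.08 without Ang replicate 3 and -0.04 without Con replicate 1. The hairpin gene of miR-210 had 4 counts in Ang replicate 3 and 0 in each other library.

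MIR22HG, on the minus strand of chromosome 17 (1711493 to 1717174), hosts miR-22, a microRNA abundant in heart and skeletal muscle, and the host RNA is known to rise under cell stress. It had 2.64, 4.29 and 7.80 CPM in Ang replicates 1 to 3, against 6.34, 3.55 and 2.52 CPM in Con replicates 1 to 3. Each group held both high and low libraries, and the range within either group exceeded the difference between the means, 4.91 ± 2.63 CPM in Ang and 4.13 ± 1.98 CPM in Con. The log2 fold change was 0.23 ± 0.59, with an interval of -0.93 to 1.389. It was -0.26 without Ang replicate 3 and 0.66 without Con replicate 1.

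MIR503HG, on the minus strand of chromosome X (134543337 to 134546632), hosts miR-503, which belongs with miR-424 to a cluster known to slow the cell cycle. It was the only tested member with a value below 0, a log2 fold change of -0.41 ± 0.59 with an interval of -1.57 to 0.75. It had 7, 22 and 14 counts (2.05, 5.55 and 4.04 CPM) in Ang replicates 1 to 3, against 11, 48 and 16 counts (2.32, 8.11 and 5.03 CPM) in Con replicates 1 to 3. Con replicate 2 was the highest, and without it the value was 0.12 ± 0.75. That library also had the lowest strand ratio, 28.5, and a link between ratio and level was not tested. Replicate 1 was the lowest and replicate 2 the highest library within both groups.

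**Figure D2:**
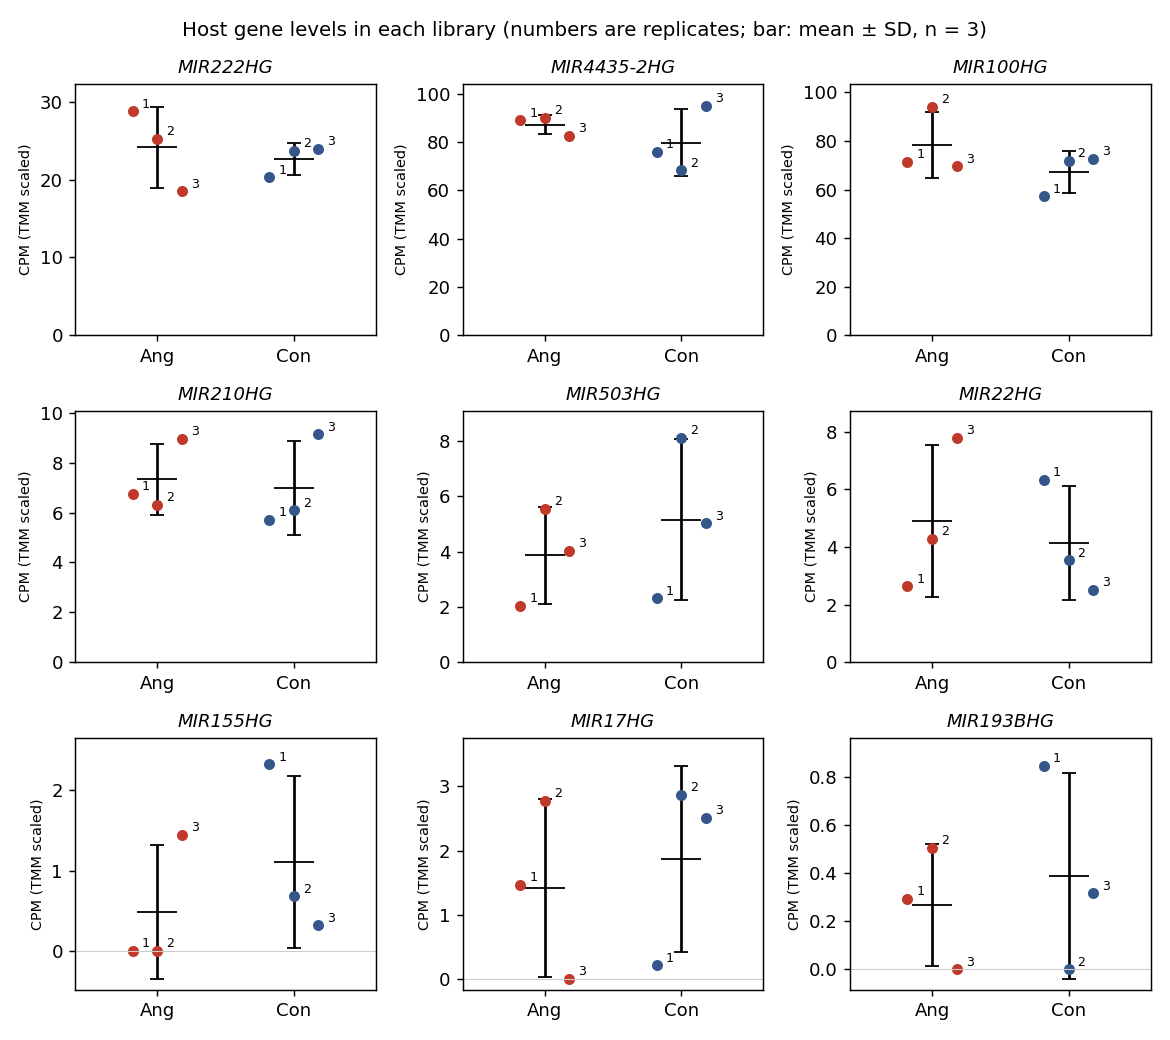
Level of the 9 host genes in each library in TMM-scaled CPM, Ang left and Con right, with replicate numbers beside the points and the mean ± SD (n = 3) in black, on a separate linear axis per gene. The groups overlap in every panel, and MIR503HG has its highest point, 8.11 CPM, in Con replicate 2.

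MIR17HG, MIR155HG and MIR193BHG did not pass the filter on low counts and were not tested. MIR17HG, on the plus strand of chromosome 13 (91347820 to 91354579), hosts the miR-17-92 cluster, a target of MYC that promotes growth. It had 5, 11 and 0 counts in Ang replicates 1 to 3, against 1, 17 and 8 in Con replicates 1 to 3. Its depth-scaled ratio of summed counts, Ang over Con, was 0.759, with an exact (Clopper-Pearson) interval of 0.380 to 1.47. Each group held libraries with at most 1 count and libraries with over 5.

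MIR155HG, on the plus strand of chromosome 21 (25561909 to 25575168), hosts miR-155, which immune cells make after NF-kB activation. It had 0, 0 and 5 counts in Ang replicates 1 to 3, against 11, 4 and 1 in Con replicates 1 to 3. Of the Con counts 11 of 16 came from replicate 1, and the groups overlapped. The depth-scaled ratio was 0.385 (exact interval 0.110 to 1.10). MIR193BHG, on the plus strand of chromosome 16 (14301389 to 14331067), hosts miR-193b, a repressor of the urokinase gene, and miR-365a. It had 1, 2 and 0 counts in Ang against 4, 0 and 1 in Con, with a ratio of 0.740 (0.115 to 3.80). Intervals of these ratios cover counting error only, and differences of several-fold were not detectable for MIR193BHG at this depth. The interval of MIR155HG also held levels several-fold lower in Ang. In the edgeR fit without the low-count filter, the SE of the log2 fold change was 1.56 for MIR155HG and 1.04 for MIR17HG. Large differences could thus be missed for these 2 as well.

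**Figure D3:**
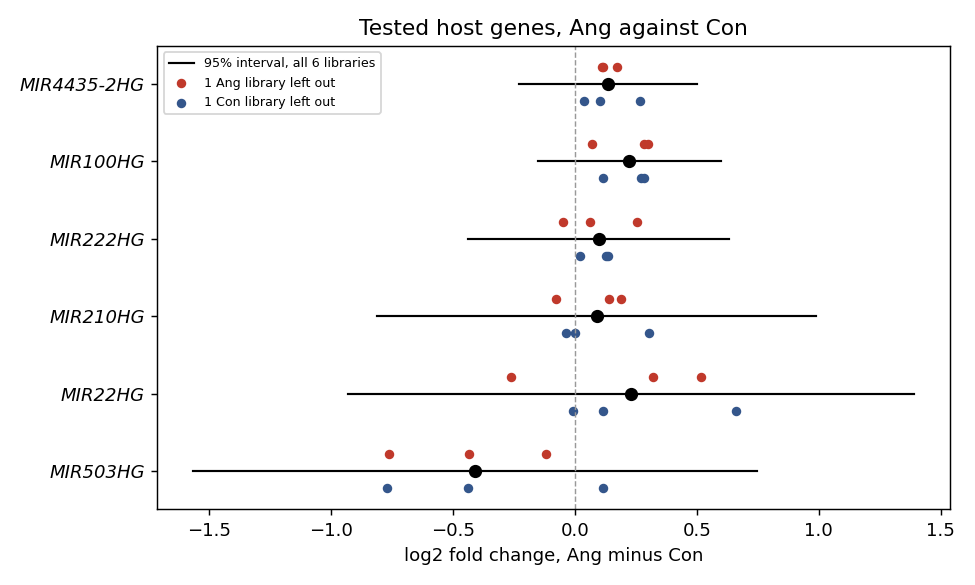
Log2 fold change, Ang minus Con, of the 6 tested host genes with the 95% interval from all 6 libraries in black, and the values with 1 Ang library (red) or 1 Con library (blue) left out. Every black interval contains 0, and the points of MIR22HG run from -0.26 to 0.66.

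The precision differed between members. At the 95% level, fold changes of more than 2-fold in either direction were outside the interval for MIR4435-2HG, MIR100HG, MIR222HG and MIR210HG, which for MIR210HG meant 0.570-fold to 1.98-fold. For MIR22HG it ran from 0.525-fold to 2.62-fold and for MIR503HG from 0.338-fold to 1.68-fold. Over the 6 libraries the coefficient of variation was 11.9% for MIR4435-2HG, 15.6% for MIR222HG and 16.3% for MIR100HG, and 49.8% for MIR503HG.

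Other host genes and the processing genes were described from 3 further lists. Of 44 other noncoding host genes 28 were listed and 11 tested, of which 0 passed in either direction. Their median log2 fold change was -0.06, 4 were above 0 and 7 below, beside 50.8% below over all genes tested, and in 2 of 11, MIR3936HG and MIR4458HG, the groups did not overlap, beside 8.16% of all genes tested. FTX, an X-linked noncoding gene that hosts miR-374 and miR-545, was the most abundant by CPM, with 375.6, 350.2 and 365.7 CPM in Ang replicates 1 to 3, against 391.5, 283.8 and 467.7 CPM in Con replicates 1 to 3, and 44.3% of its exon bases lie under exons of the other strand. MIR497HG, MIR302CHG and MIR23AHG had log2 fold changes of 0.12 ± 0.17, -0.04 ± 0.18 and -0.11 ± 0.18. The share of exon bases under exons of the other strand was also large for MIR302CHG, 40.6%, and for MIR497HG, 38.2%. It was smaller for MIR23AHG. The part of the other strand in the counts of these genes was not tested. MIR3936HG had the smallest unadjusted p, with 20.8, 23.7 and 22.8 CPM in Ang against 37.2, 30.8 and 30.8 CPM in Con, so that all Ang libraries were below all Con libraries. Its log2 fold change was -0.55 ± 0.26, with an unadjusted p of 0.0325 and an adjusted p of 0.999 by edgeR. MIR4458HG, at 6.40 ± 0.821 CPM in Ang and 3.36 ± 2.15 CPM in Con (n = 3 each), had 0.88 ± 0.57.

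Many microRNAs lie in introns of coding genes. Of 52 such hosts 48 were listed and 40 tested, of which 0 passed, with a median of -0.02, 19 values above 0 and 21 below, beside 50.8% below over all genes tested. In 3 of 40, PANK3 (named after its values were seen), SMC4 and EVL, the groups did not overlap, a share near the 8.16% over all genes tested. HNRNPK, an RNA-binding protein gene that hosts miR-7-1, had 243 ± 35.3 CPM in Ang and 237 ± 5.58 CPM in Con. SMC4, a condensin gene that hosts miR-15b and miR-16-2, had 161 ± 4.06 CPM in Ang and 153 ± 2.81 CPM in Con, with a log2 fold change of 0.08 ± 0.17. PANK2 and DNM2 had values of 0.07 ± 0.17 and 0.12 ± 0.17. The share of exon bases under exons of the other strand was 25.6% for SMC4 and 11.4% for PANK2. It was 6.04% for HNRNPK and 5.77% for DNM2. EVL, an actin regulator gene that hosts miR-342, had 15.8, 13.4 and 10.4 CPM in Ang against 9.50, 7.95 and 6.92 CPM in Con. The groups of EVL did not overlap, but its log2 fold change of 0.69 ± 0.38 did not pass (edgeR adjusted p 0.999). DNM1, a dynamin gene, had -0.49 ± 0.29.

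Of the microRNA processing core 14 of 14 genes were tested, of which 0 passed. These are coding genes, and their levels are counts under the gene ID, which may not measure their messages. The part of the other strand in them was not tested. Their median log2 fold change was -0.13, 3 values were above 0 and 11 below, beside 50.8% below over all genes tested. In 1 of 14, AGO4, named after its values were seen, the groups did not overlap, a share near the 8.16% over all genes tested. DROSHA had 41.9 ± 5.10 CPM in Ang and 42.5 ± 9.31 CPM in Con, and DICER1 had 38.1 ± 11.2 CPM in Ang and 40.7 ± 2.15 CPM in Con. RAN, the GTPase that drives nuclear export of hairpins, had 0.07 ± 0.18, and PRKRA, a partner of DICER1, had -0.09 ± 0.19. AGO1 and TNRC6A, of the silencing complex, had the smallest unadjusted p, at -0.43 ± 0.35 and -0.33 ± 0.26.

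**Figure D4:**
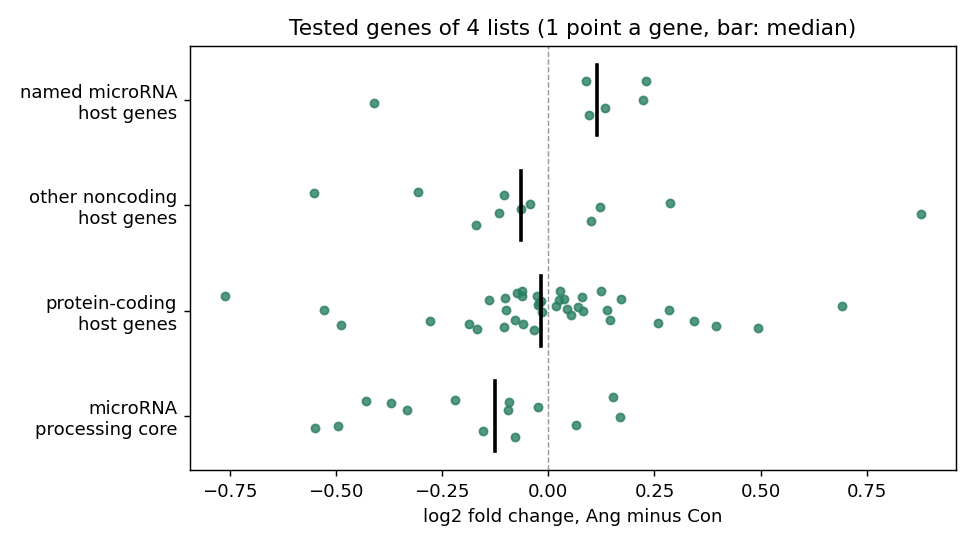
Log2 fold change, Ang minus Con, of the tested genes of 4 lists, with 1 point per gene and a black bar at the median. The medians are 0.12, -0.06, -0.02 and -0.13 from top to bottom, and 0 of the genes shown passed the threshold.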

How the data were processed

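The files deposited by the authors give, for each of the 6 libraries, raw read counts by Ensembl gene ID. Per the labels' protocols, poly-A RNA was fragmented and primed at random, and no step that marks strand is named. HTSeq 0.9.1, DESeq 1.39.0 and build GRCh38 are named, per the submitters' processing notes. Aligner, annotation release and strand setting: not given in the sources used here.

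Deposited counts were filtered with filterByExpr, scaled by TMM and tested with edgeR 4.0.16 in R 4.3.3 (robust quasi-likelihood, Ang against Con, threshold 0.05 after Benjamini-Hochberg adjustment over all genes). SE values were taken from the fold change and its F statistic. CPM values are TMM scaled. Symbols came from the gene table and coordinates from GENCODE release 29 on GRCh38. Copies were sought with BLAST 2.17.0 (at least 95% identity over 200 bases). The strand pairs were noncoding genes with at least 90% of exon bases under 1 coding gene of at least 300 counts, with 0.5 added to counts. Fits were tested on simulated data. In each list the 4 most abundant tested genes and the 2 of smallest p were named. Members and lists were chosen with earlier results of these data known. Alternatives were RLE scaling, other filters, a replicate block, DESeq2 1.42.0, limma-voom (limma 3.58.1) and leaving out each library.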

Additional observations from a re-analysis of the deposited data

How the results depend on the processing

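The 0 genes called stayed at 0 with DESeq2, with limma-voom, without a filter, with a filter of 1 CPM in 3 libraries, with RLE scaling and with the summed copy pair, with 408 to 1633 genes at an unadjusted p under 0.05 over all settings. Leaving out 1 library gave 0 to 40 genes. The 40 came without Con replicate 2. Without Con replicate 1 there was 1, the signal recognition particle RNA gene RN7SL1 (log2 fold change -1.80). The cause was not tested. No tested member was among them, and the smallest adjusted p of a member over all settings was 0.590 for MIR100HG. The replicate block gave 0 genes. Same-numbered libraries had correlations of deviations of 0.037, 0.0675 and 0.0356, against -0.0697 to 0.0302 for differently numbered libraries. The same-numbered values were the higher ones, but all were small and the labels name no pairing. The replicate block was therefore kept as an alternative only. Of 73 alternative values of the 6 tested members, 67 kept direction and 6 changed sign without a call, all when 1 library was left out: MIR210HG (-0.04 and -0.08), MIR22HG (-0.01 and -0.26), MIR222HG (-0.05) and MIR503HG (0.12). Without the low-count filter, the 3 untested members had values of -1.18 ± 1.56 (MIR155HG), -0.38 ± 1.04 (MIR17HG) and -0.46 ± 2.05 (MIR193BHG). Depth limits these low genes most.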
